A study of Mus musculus with 10 samples.

Results

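The genes described here are those of the mouse colon whose pathway annotation in the deposited table includes the KEGG cell cycle map, 253 of 56691 genes. Of these, 122 were given a role in the cycle by their established function, and the other 131 are pseudogenes, predicted genes and genes that carry the orthology number of a cell cycle gene. A filter on low counts left 132 of the 253 for testing, 117 of them with a role, out of 16545 genes tested in the whole table. The tissue came from 8-week-old male C57BL/6 mice that had all drunk 3% dextran sulfate sodium (DSS) for 7 days, which injures the colon lining. For the 5 mice called DSS here no later treatment is given in the sources used here, and the 5 called ceAF were then gavaged with chick early amniotic fluid at 15 mL/kg for 10 days. The day of sampling is not given in the sources used here, and mice without DSS or on mesalazine were not analysed here, so the level of these genes before injury is not known from these values. Sequencing of poly(A) RNA from colon gave 16275884 to 19901549 counts per DSS mouse (median 16426125) and 14676471 to 18811795 per ceAF mouse (median 16058782). That the 10 libraries are separate animals rests on the sample labels.

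A cell enters the cycle when D-type cyclins with their kinases phosphorylate the retinoblastoma protein and release E2F, which switches on cyclin E and the genes that license and copy DNA. Cyclin A and cyclin B with Cdk1 then carry the cell through S phase and mitosis, the spindle checkpoint holds back the anaphase-promoting complex until chromosomes are attached, and inhibitors of the Cip/Kip and INK4 families stop the kinases. In the colon these genes are mainly active in the dividing cells of the lower crypt, and in dividing lymphocytes of the lymphoid follicles, and crypts divide more while an injured lining is rebuilt.

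Levels are given as CPM, read counts brought to a common library total after TMM scaling, for mice 1 to 5 of each group in that order, and errors after ± are standard deviations over the 5 mice of a group. Levels of different genes are compared only as FPKM, which also divides by the exonic length. A log2 fold change is ceAF minus DSS, from edgeR's quasi-likelihood test across all genes tested. No cell cycle gene had a Benjamini-Hochberg adjusted p under 0.05 with edgeR, DESeq2 or limma's voom with sample quality weights, where the background over all genes was 0 (0%) with edgeR and voom and 30 genes with DESeq2, and the smallest edgeR adjusted p of a cell cycle gene with a role was 0.656. At an unadjusted edgeR p under 0.05, 9 of the 132 tested members (6.82%) differed, against 6.93% of all genes tested. Of these, 5 were higher in ceAF (3.79%, background 3.26%) and 4 were lower (3.03%, background 3.67%), so the share is near that of all genes. The groups did not overlap for 3 members (2.27%, background 1.24%), for Cdk7 as higher in ceAF (background 0.774%) and for Ccnd3 and Gadd45b as lower (background 0.465%). Scaled by total counts alone, 2 members were higher (1.52%, with 1.98% of all genes) and 5 lower (3.79%, with 4.51%).

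More members lay above 0 than below. The log2 fold change was above 0 for 91 of 132 tested members (68.9%), against 51.4% of all genes tested, and the median was 0.097 against 0.0076. By role, the median was 0.097 for G1 cyclins and kinases, 0.044 for the Rb and E2F proteins, 0.17 for replication licensing, 0.39 for S phase and mitotic cyclins and kinases and 0.43 for the spindle checkpoint. It was 0.090 for the anaphase-promoting complex with separase and cohesin, -0.084 for the inhibitors, 0.041 for the DNA damage checkpoint and -0.075 for ubiquitin ligase and upstream signal genes. Leaving out 1 mouse moved the G1 median between 0.046 (without DSS mouse 1) and 0.21 (without DSS mouse 5), the Rb and E2F median between 0.026 (DSS mouse 1) and 0.075 (DSS mouse 4), the DNA damage checkpoint median between 0.0046 (DSS mouse 3) and 0.076 (DSS mouse 5), and that of the anaphase-promoting complex role between 0.080 (DSS mouse 4) and 0.14 (DSS mouse 5). It moved the licensing median between 0.082 and 0.30, the mitotic median between 0.26 and 0.47 and the spindle checkpoint median between 0.26 and 0.59, each lowest without ceAF mouse 5 and highest without ceAF mouse 1, and the inhibitor median between -0.20 (without DSS mouse 5) and -0.0085 (without DSS mouse 2). The median of ubiquitin ligase and upstream signal genes turned to 0.020 without DSS mouse 5 and to 0.058 with voom, where 6 of 11 lay above 0. With limma-trend on log2(FPKM + 1) and log2(FPKM + 0.1), the Rb and E2F median was 0.0079 and 0.0072. That of the anaphase-promoting complex role was 0.054 and 0.066 in these fits. The medians of the licensing, mitotic and spindle checkpoint roles lay above 0 and that of the inhibitors below 0 under each scaling, filter, tool and leave-out tried.

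**Figure D1:**
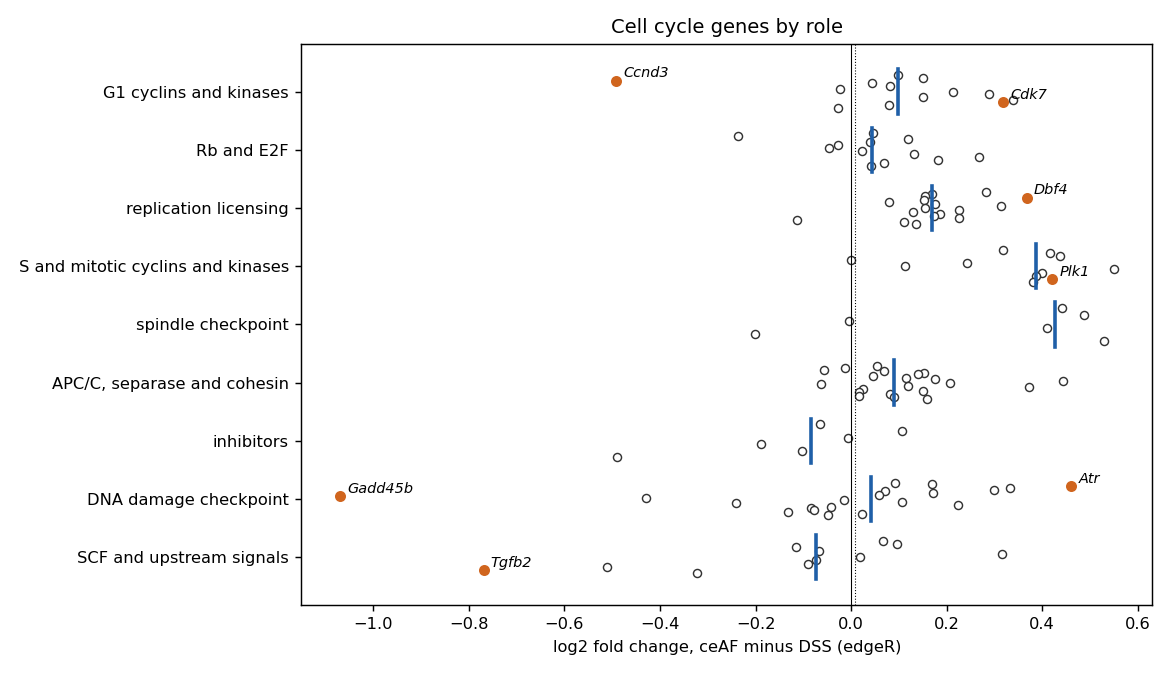
Log2 fold change (ceAF minus DSS, edgeR) of each of the 117 tested cell cycle genes with a role, 1 point per gene. Filled and named points have an unadjusted p under 0.05, blue bars are the medians of the roles, and the dotted line is the median of all genes tested (0.0076); the points of the mitotic role lie around a median of 0.39 and those of the inhibitors around -0.084.

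For the licensing, mitotic and spindle checkpoint roles, the spread among the ceAF mice was larger than the difference between the groups. Each role was scored in each mouse as the mean over its tested genes of log2 CPM, centred gene by gene over the 10 mice. The licensing score was -0.21, -0.088, -0.18, -0.021 and 0.15 in the DSS mice and -0.48, 0.14, 0.19, 0.11 and 0.38 in the ceAF mice. The mitotic score was -0.32, 0.12, -0.042, -0.072 and -0.41 in the DSS mice and -0.35, 0.14, 0.19, 0.18 and 0.57 in the ceAF mice, and the spindle checkpoint score was -0.40, 0.012, -0.067, -0.15 and 0.019 in the DSS mice and -0.48, 0.098, 0.25, 0.17 and 0.55 in the ceAF mice. In all 3, ceAF mouse 5 was the highest of the 10 mice, the other ceAF mice except mouse 1 lay above 0, and ceAF mouse 1 was the lowest for licensing and the spindle checkpoint. DSS mouse 5 was the lowest for the mitotic genes while it was the highest DSS mouse for licensing. The group difference in score was 0.14, 0.29 and 0.24, beside a standard deviation over the ceAF mice of 0.32, 0.33 and 0.38 and over the DSS mice of 0.14, 0.22 and 0.17.

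Gene by gene, ceAF mouse 5 held the highest CPM of the 10 mice for 23 of the 34 tested genes of these 3 roles (67.6%, and 13.4% of all genes tested), and ceAF mouse 1 the lowest for 21 (61.8%, and 21.0% of all genes tested). The share of all counts that fell on the cell cycle genes was 0.650% in ceAF mouse 1 and 0.809% in ceAF mouse 5, with the other 8 mice from 0.740% to 0.785%. These same mice had the largest shares of counts on mitochondrial genes, 9.66% and 9.74%, against 4.53% to 7.24% in the others, and the part of that difference in the cell cycle values was not tested. Library size differed less, and the smallest library, 14676471 counts, was that of ceAF mouse 1.

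Leaving out ceAF mouse 1 moved the count of members higher in ceAF at an unadjusted edgeR p under 0.05 from 5 to 26 of 133 tested (19.5%), while the share of all genes tested went from 3.26% to 5.21%. The 26 comprised Dbf4, Mcm3, Mcm4, Mcm5, Mcm6, Mcm7 and Orc4 of the licensing role, Ccna2, Ccnb1, Ccnb2, Cdc25c, Cdk1 and Plk1 of the mitotic role, and Bub1, Bub1b, Mad2l1 and Ttk of the spindle checkpoint. They also comprised Cdk2, Cdk4 and Cdk7, Cdc16, Cdc20 and Cdc23, and Atr, Chek2 and Trp53. None had an adjusted p under 0.05 in that fit. Voom with sample quality weights, which gives each library a weight by how far it strays from its group, put 23 members higher (17.4%, with 7.29% of all genes) and 5 lower (3.79%, with 7.53%). In 4 other leave-outs the share was below that of all genes: the higher members were 2 without DSS mouse 1 (1.504%, with 2.34% of all genes), 4 without ceAF mouse 3 (3.03%, with 3.70% of all genes), 3 without ceAF mouse 4 (2.26%, with 2.49% of all genes) and 3 without ceAF mouse 5 (2.27%, with 2.59% of all genes). In the remaining 5 they were 4 to 7 (3.01% to 5.26%, with 2.33% to 5.05% of all genes).

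**Figure D2:**
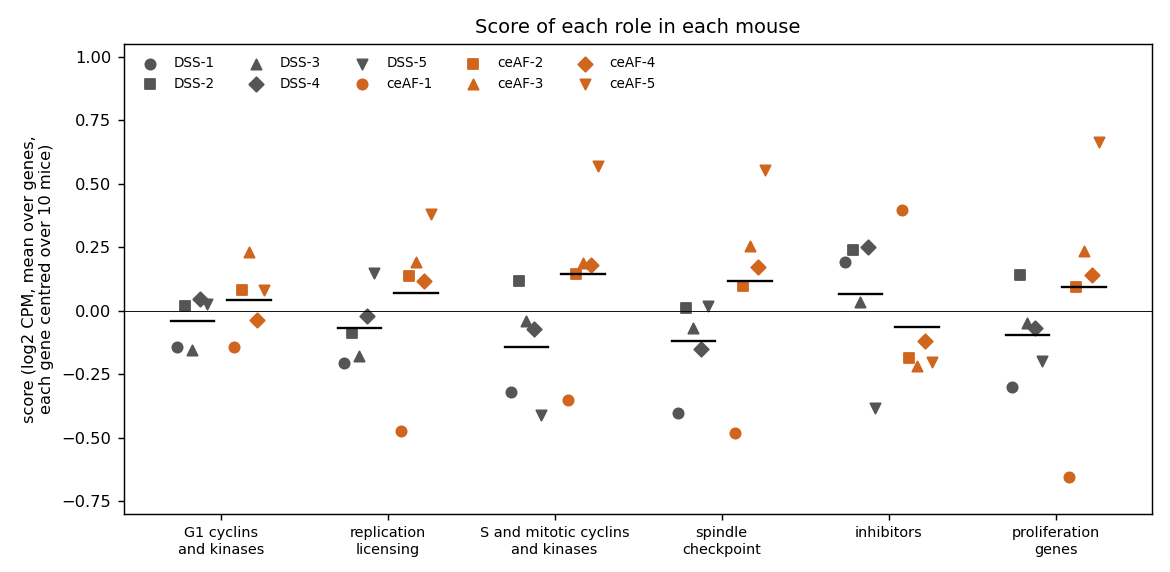
Score of 5 cell cycle roles and of 16 proliferation genes in each mouse, as the mean log2 CPM over the tested genes with each gene centred over the 10 mice. Bars are group means; ceAF mouse 1 has the lowest licensing score (-0.48) and ceAF mouse 5 the highest mitotic score (0.57).

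In the G1 role, all 13 genes were tested: the D cyclins Ccnd1, Ccnd2 and Ccnd3 with their kinases Cdk4 and Cdk6, the E cyclins Ccne1 and Ccne2 with Cdk2, the Cdk-activating kinase Cdk7 with its cyclin Ccnh, the phosphatase Cdc25a, Myc and its partner Zbtb17. Of these, 10 lay above 0. Ccnd3, the D cyclin used widely by lymphocytes (ENSMUSG00000034165), stood at 66.6, 42.2, 45.02, 55.01 and 50.1 CPM in the DSS mice and 34.0, 38.9, 41.8, 33.2 and 35.95 CPM in the ceAF mice. No ceAF mouse reached the level of the lowest DSS mouse, and DSS mouse 1 was the highest. Its mean was 51.8 ± 9.63 CPM in DSS and 36.8 ± 3.55 CPM in ceAF, a log2 fold change of -0.49 (SE 0.131, 95% interval -0.78 to -0.20, unadjusted edgeR p = 0.00320, exact permutation p 0.00794). That exact p is the smallest that the 252 assignments of 5 of 10 mice can give.

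T cell genes also stood lower in ceAF. All 8 T cell genes (Cd3e, Cd3d, Cd3g, Cd2, Cd5, Cd4, Cd8a and Trac) had an unadjusted edgeR p under 0.05 and were lower in ceAF, with a median log2 fold change of -1.23. At that limit 3.67% of all genes tested were lower, and none of the 8 had a Benjamini-Hochberg adjusted p under 0.05. When each mouse was left out, Cd5 kept an unadjusted edgeR p under 0.05 only without DSS mouse 5 and without ceAF mouse 2. The other 7 genes kept it in each of these fits. By the exact permutation test Cd5 (0.167) and Cd4 (0.0873) were not under 0.05, and the other 6 ran from 0.00794 to 0.0476. Their summed level was 109, 126, 119, 129.9 and 46.7 CPM in the DSS mice and 44.2, 57.1, 49.8, 27.7 and 34.7 CPM in the ceAF mice. The most abundant was Trac, with a mean of 11.8 FPKM, and no T cell gene was at 0 in any mouse. In bulk tissue, fewer cells of a type and less RNA per cell cannot be told apart, and the part of T cells in the Ccnd3 difference was not tested.

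The other D cyclins did not show that separation. Ccnd1 stood at 32.2, 51.1, 31.97, 48.0 and 54.9 CPM in the DSS mice and 29.1, 49.5, 53.0, 58.8 and 42.9 CPM in the ceAF mice, with both groups spread over nearly the same range (log2 fold change 0.097, or 0.0082 without ceAF mouse 4 and 0.23 without ceAF mouse 1). Ccnd2, the G1 gene with the highest mean FPKM (16.6, against 9.60 for Ccnd1 and 5.05 for Ccnd3), stood at 119.7, 141, 148, 164 and 173 CPM in the DSS mice and 106, 221, 276, 71.3 and 153 CPM in the ceAF mice. Its ceAF mice covered a range that held all the DSS mice, with mouse 3 highest and mouse 4 lowest, and the log2 fold change of 0.15 turned to -0.11 without ceAF mouse 3.

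Cdk7 (ENSMUSG00000069089), whose kinase switches on other Cdks and also acts in transcription, stood at 14.95, 15.4, 14.5, 14.7 and 16.4 CPM in the DSS mice and 19.5, 19.8, 16.9, 20.5 and 18.3 CPM in the ceAF mice. Every ceAF mouse lay above every DSS mouse, by a small margin for ceAF mouse 3. The mean was 15.2 ± 0.761 CPM in DSS and 19.0 ± 1.42 CPM in ceAF, with a log2 fold change of 0.32 (95% interval 0.10 to 0.53, unadjusted edgeR p = 0.00775, exact permutation p 0.00794). Its cyclin Ccnh had a log2 fold change of -0.024, with means of 20.1 ± 1.29 CPM in DSS and 19.8 ± 2.75 CPM in ceAF. Among the G1 kinases, Cdk6 had 17.6 ± 4.61 CPM in DSS and 22.2 ± 2.09 CPM in ceAF (log2 fold change 0.34), Cdk2 25.7 ± 3.29 CPM in DSS and 31.4 ± 6.35 CPM in ceAF (0.29) and Cdk4 44.8 ± 5.03 CPM in DSS and 49.7 ± 9.52 CPM in ceAF (0.15). Without ceAF mouse 5 the log2 fold change was 0.18 for Cdk2 and 0.073 for Cdk4, without ceAF mouse 1 it was 0.26 for Cdk4, and without DSS mouse 5 it was 0.21 for Cdk6. In FPKM Cdk4 was the most abundant of these kinases, at 14.6 against 4.61 for Cdk2 and 1.42 for Cdk6. The E cyclins had log2 fold changes of 0.043 for Ccne1 and 0.082 for Ccne2. Leaving out 1 mouse moved Ccne1 between -0.055 (without ceAF mouse 3) and 0.17 (without ceAF mouse 4), and Ccne2 between 0.035 (without DSS mouse 4) and 0.15 (without ceAF mouse 2). Cdc25a, which removes the inhibitory phosphate from Cdk2, had 0.21, or 0.12 without ceAF mouse 1. Myc stood at 19.2 ± 6.34 CPM in DSS and 20.3 ± 4.33 CPM in ceAF, a log2 fold change of 0.080, and Zbtb17 at -0.027.

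The Rb and E2F role held Rb1, Rbl1 and Rbl2, which block E2F, the factors E2f1, E2f2, E2f3, E2f4 and E2f5 with their partners Tfdp1 and Tfdp2, and the histone deacetylases Hdac1 and Hdac2. All 12 were tested, 9 lay above 0 and none had an unadjusted edgeR p under 0.05 (smallest 0.140), with log2 fold changes from -0.24 for E2f2 to 0.27 for Rbl1. E2f1, an activator of S phase genes, stood at 3.42, 4.05, 4.37, 4.29 and 3.90 CPM in the DSS mice and 1.83, 4.49, 5.05, 3.52 and 5.72 CPM in the ceAF mice. Again ceAF mouse 1 was lowest and ceAF mouse 5 highest, and the DSS mice lay between them (log2 fold change 0.045). The log2 fold change of E2f1 turned to -0.10 without ceAF mouse 5 and was 0.23 without ceAF mouse 1. It was also below 0 with both limma-trend fits and the replicate block. Rb1 had 72.3 ± 8.51 CPM in DSS and 79.2 ± 10.6 CPM in ceAF (log2 fold change 0.13) and Rbl1 44.5 ± 9.64 CPM in DSS and 53.6 ± 9.26 CPM in ceAF (0.27). Rb1 was 0.046 without ceAF mouse 1, and Rbl1 0.18 without DSS mouse 1. For these pocket proteins ceAF mouse 1 was the highest of the 10, at 97.4 CPM for Rb1, 64.7 for Rbl1 and 59.9 for Rbl2, the opposite end from its place for E2f1. Hdac1 was the most abundant gene of the role, with a mean FPKM of 40.6, and E2f1 the least, with 1.296.

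Replication licensing comprised the origin recognition genes Orc1, Orc2, Orc3, Orc4, Orc5 and Orc6, the loading factor Cdc6, the helicase subunits Mcm2 to Mcm7, Cdc45, which joins the active helicase, the kinase Cdc7 with its activator Dbf4, and the clamp Pcna. All 17 were tested and 16 lay above 0, the exception being Orc5 (-0.11). Mcm2 (ENSMUSG00000002870) stood at 15.8, 16.8, 11.6, 18.6 and 25.6 CPM in the DSS mice and 9.004, 22.9, 21.2, 21.2 and 24.0 CPM in the ceAF mice. The ceAF mice 2 to 5 lay within a narrow band inside the DSS range, and ceAF mouse 1 lay below every DSS mouse, so the groups overlapped. The mean was 17.7 ± 5.12 CPM in DSS and 19.7 ± 6.08 CPM in ceAF, a log2 fold change of 0.15 (SE 0.270, 95% interval -0.44 to 0.75, unadjusted edgeR p = 0.581, exact permutation p 0.714), which ran from 0.044 without DSS mouse 3 to 0.34 without DSS mouse 5.

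The other helicase subunits had the same low mouse. Mcm5 stood at 12.9, 16.7, 16.3, 17.7 and 24.0 CPM in the DSS mice and 8.62, 26.9, 24.3, 20.6 and 28.4 CPM in the ceAF mice, and Mcm6 at 32.6, 38.7, 29.2, 35.1 and 45.1 CPM in the DSS mice and 18.4, 45.6, 43.7, 38.9 and 54.5 CPM in the ceAF mice. For both, ceAF mouse 1 was the lowest of the 10 and ceAF mouse 5 the highest. The log2 fold changes were 0.079 for Mcm3, 0.17 for Mcm4, 0.31 for Mcm5, 0.15 for Mcm6 and 0.22 for Mcm7. Without ceAF mouse 1 they were larger, 0.27, 0.34, 0.51, 0.34 and 0.35 in that order. Without ceAF mouse 5 they were smaller, -0.035, 0.11, 0.20, 0.020 and 0.14, with Mcm3 below 0 and Mcm6 near it. Of the 6 subunits Mcm6 had the highest mean FPKM, 8.23, and Mcm2 the lowest, 2.70.

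Dbf4 (ENSMUSG00000002297) was the licensing gene with the smallest p. It stood at 18.4, 18.1, 22.4, 20.3 and 19.99 CPM in the DSS mice and 17.6, 25.97, 27.0, 27.0 and 30.3 CPM in the ceAF mice. The ceAF mice 2 to 5 lay above every DSS mouse, and ceAF mouse 1 below every one. The mean was 19.8 ± 1.72 CPM in DSS and 25.6 ± 4.73 CPM in ceAF, with a log2 fold change of 0.37 (unadjusted edgeR p = 0.0250, exact permutation p 0.0476). The unadjusted p was not under 0.05 with total count scaling, with either limma-trend fit, or without DSS mouse 1, DSS mouse 2 or ceAF mouse 5. Its kinase partner Cdc7 had 11.6 ± 1.51 CPM in DSS and 12.9 ± 2.55 CPM in ceAF (0.16 on the log2 scale), with ceAF mouse 1 the highest at 16.1 CPM. Orc3 and Orc4 had log2 fold changes of 0.17 and 0.23, Orc1 0.13, Orc2 0.19 and Orc6 0.11. Cdc6 had 5.54 ± 0.566 CPM in DSS and 6.22 ± 1.83 CPM in ceAF (0.17) and Cdc45 5.47 ± 1.37 CPM in DSS and 6.64 ± 2.68 CPM in ceAF (0.28). Pcna, the most abundant gene of the role by mean FPKM (29.0), had 66.3 ± 8.49 CPM in DSS and 72.8 ± 13.02 CPM in ceAF, a log2 fold change of 0.14. Leaving out 1 mouse moved Cdc45 between 0.069 and 0.47 and Pcna between 0.055 and 0.22, lowest without ceAF mouse 5 and highest without ceAF mouse 1. Without ceAF mouse 5 Orc1 was 0.058, and Cdc6 was 0.075 without ceAF mouse 3 and 0.32 without ceAF mouse 1.

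The S phase and mitotic role held Ccna2, Ccnb1, Ccnb2 and Cdk1, the kinase Plk1, the kinases Wee1 and Pkmyt1 that hold Cdk1 inactive, the phosphatases Cdc25b and Cdc25c that release it, and Cdc14a and Cdc14b. Of the 11 tested, 10 lay above 0, the exception being Cdc14a at -0.00064. Ccnb1 (ENSMUSG00000041431), the cyclin of mitotic entry, stood at 15.6, 20.3, 16.2, 16.5 and 12.5 CPM in the DSS mice and 10.1, 20.2, 22.0, 25.8 and 30.1 CPM in the ceAF mice. Cdk1 (ENSMUSG00000019942), its kinase, stood at 18.3, 25.5, 19.8, 20.4 and 14.3 CPM in the DSS mice and 12.8, 25.7, 27.8, 24.3 and 38.8 CPM in the ceAF mice. For both genes ceAF mouse 1 was the lowest of the 10 mice and ceAF mouse 5 the highest, DSS mouse 5 was the lowest of its group and DSS mouse 2 the highest, and the groups overlapped.

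The mean of Ccnb1 was 16.2 ± 2.80 CPM in DSS and 21.6 ± 7.46 CPM in ceAF, a log2 fold change of 0.42 (SE 0.248, 95% interval -0.13 to 0.96, unadjusted edgeR p = 0.122, exact permutation p 0.262). That of Cdk1 was 19.6 ± 4.04 CPM in DSS and 25.9 ± 9.25 CPM in ceAF, a log2 fold change of 0.40 (SE 0.252, 95% interval -0.15 to 0.95, unadjusted edgeR p = 0.141, exact permutation p 0.310). Both intervals hold 0. Leaving out each mouse in turn moved the log2 fold change from 0.27 to 0.60 for Ccnb1 and from 0.21 to 0.57 for Cdk1, lowest without ceAF mouse 5 and highest without ceAF mouse 1. The mean FPKM of the pair was alike, 4.53 and 4.64.

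Plk1 (ENSMUSG00000030867), which acts from mitotic entry to cell division, stood at 52.5, 67.9, 55.7, 66.6 and 53.7 CPM in the DSS mice and 51.7, 72.5, 73.0, 104 and 96.0 CPM in the ceAF mice. The ceAF mice 2 to 5 lay above every DSS mouse, led by mice 4 and 5, and ceAF mouse 1 lay below every one. The mean was 59.3 ± 7.38 CPM in DSS and 79.4 ± 20.7 CPM in ceAF, with a log2 fold change of 0.42 (95% interval 0.033 to 0.81, unadjusted edgeR p = 0.0360, exact permutation p 0.0794). With total count scaling and both limma-trend fits its unadjusted p was not under 0.05, nor was it without DSS mouse 1, 3 or 5 or without ceAF mouse 4 or 5. Plk1 was also the most abundant gene of the role, with a mean FPKM of 31.7. The kinases opposed to mitotic entry lay on the same side: Wee1 had 12.7 ± 3.41 CPM in DSS and 16.5 ± 3.18 CPM in ceAF (0.38 on the log2 scale) and Pkmyt1 10.9 ± 1.45 CPM in DSS and 14.2 ± 3.85 CPM in ceAF (0.39). All 5 ceAF mice lay above the DSS median for both. Ccna2 had 48.0 ± 7.05 CPM in DSS and 59.8 ± 19.5 CPM in ceAF (0.32) and Ccnb2 17.2 ± 4.90 CPM in DSS and 23.3 ± 7.58 CPM in ceAF (0.44). Cdc25c, at low counts, had 3.26 ± 0.644 CPM in DSS and 4.76 ± 2.36 CPM in ceAF (0.55), Cdc25b had 0.11 and Cdc14b 0.24. These, too, rested in part on ceAF mouse 5, without which Ccna2 was 0.16, Ccnb2 0.26, Cdc25c 0.26 and Cdc25b -0.029.

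**Figure D3:**
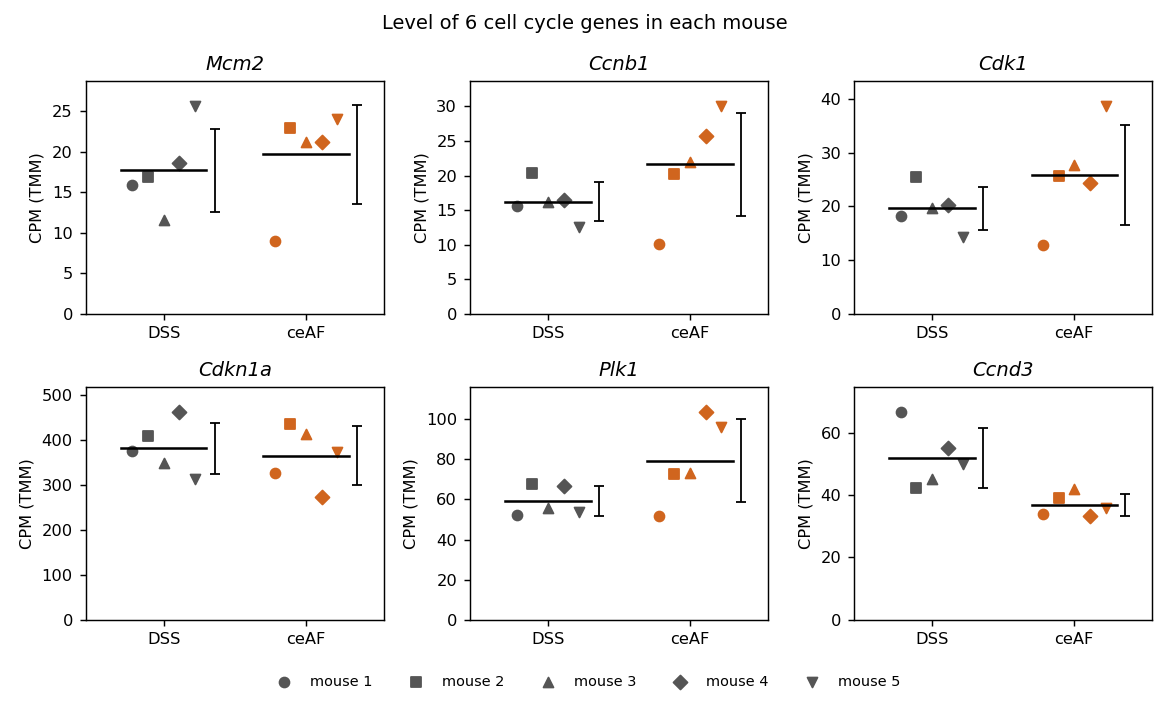
Level in CPM of 6 cell cycle genes in each of 5 DSS mice (grey) and 5 ceAF mice (orange), with axes starting at 0. Horizontal bars are means and error bars standard deviations; symbols number the mice within a group and do not pair them. Mcm2, Ccnb1, Cdk1, Cdkn1a and Plk1 overlap between the groups, and Ccnd3 does not.

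The spindle checkpoint role held the kinases Ttk and Bub1, and Bub1b, Bub3, Mad2l1 and Mad2l2, all 6 tested. Ttk stood at 3.48, 6.30, 7.66, 4.16 and 6.30 CPM in the DSS mice and 3.74, 7.68, 8.83, 7.52 and 12.4 CPM in the ceAF mice, and Bub1b at 8.87, 15.5, 12.2, 13.001 and 13.3 CPM in the DSS mice and 8.62, 16.7, 17.4, 19.7 and 25.7 CPM in the ceAF mice. The ceAF mice 2 to 5 lay above every DSS mouse for Bub1b, ceAF mouse 5 was highest for both, and ceAF mouse 1 was the lowest ceAF mouse. The log2 fold change was 0.53 for Ttk (95% interval -0.16 to 1.21), 0.49 for Bub1b (-0.069 to 1.04), 0.44 for Bub1 and 0.41 for Mad2l1, with unadjusted edgeR p-values from 0.0800 to 0.139. Without ceAF mouse 5 it was 0.32 for Ttk, 0.31 for Bub1b and 0.20 for Mad2l1. Bub3 and Mad2l2, which also have work outside the spindle checkpoint, lay below 0, at -0.0050 and -0.20. Bub3 was the most abundant, with a mean FPKM of 6.55, and had 45.9 ± 2.82 CPM in DSS and 45.8 ± 3.45 CPM in ceAF. The sign of Bub3 turned under upper quartile normalization, voom, the other filters and 6 of the leave-outs, at values near 0.

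The anaphase-promoting complex was represented by Anapc1, Anapc2, Anapc4, Anapc5, Anapc7, Anapc10, Anapc11, Anapc13, Cdc16, Cdc23, Cdc26 and Cdc27, with its activators Cdc20 and Fzr1. The role also held securin (Pttg1), separase (Espl1) and the cohesin genes Smc1a, Smc1b, Smc3, Rad21, Stag1 and Stag2. Of 21 tested, 18 lay above 0 and none had an unadjusted edgeR p under 0.05 (smallest 0.0881, Anapc2). Cdc20, the activator used in mitosis, stood at 16.7, 18.8, 14.6, 14.3 and 12.3 CPM in the DSS mice and 11.4, 19.4, 18.2, 21.0 and 34.2 CPM in the ceAF mice. It had the same lowest and highest mice as Ccnb1 and Cdk1, with a log2 fold change of 0.44 that was 0.19 without ceAF mouse 5. Fzr1, the activator used in G1, had 40.3 ± 5.30 CPM in DSS and 41.0 ± 3.90 CPM in ceAF, a log2 fold change of 0.024. Espl1 had 7.10 ± 1.41 CPM in DSS and 9.18 ± 4.15 CPM in ceAF (0.37) and Pttg1 29.2 ± 6.95 CPM in DSS and 32.4 ± 9.22 CPM in ceAF (0.15), where ceAF mouse 1 was the highest, at 43.6 CPM. Espl1 was 0.081 without ceAF mouse 5, and Pttg1 0.021 without ceAF mouse 1 and 0.31 without ceAF mouse 4. The subunits of the complex itself ran from -0.063 for Cdc26 to 0.21 for Cdc23. Among the cohesin genes, the log2 fold change was 0.16 for Stag2, 0.090 for Stag1, 0.082 for Smc1a, 0.017 for Smc3 and 0.017 for Rad21, the most abundant gene of the role with a mean FPKM of 49.2.

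Of the 7 inhibitors, 6 were tested and 5 lay below 0. Cdkn1a (ENSMUSG00000023067), which encodes p21 and is a target of p53, stood at 376, 409, 349.6, 462 and 312 CPM in the DSS mice and 327, 437, 414, 274 and 375 CPM in the ceAF mice. Both groups covered nearly the same range, with DSS mouse 4 highest and ceAF mouse 4 lowest. The mean was 382 ± 57.3 CPM in DSS and 365 ± 66.0 CPM in ceAF, a log2 fold change of -0.065 (SE 0.152, 95% interval -0.40 to 0.27, unadjusted edgeR p = 0.675, exact permutation p 0.651), and the sign turned without DSS mouse 4 or ceAF mouse 4. Its mean FPKM of 105 was far above that of Mcm2 (2.70), Ccnb1 (4.53) and Cdk1 (4.64), and above the other inhibitors, of which Cdkn1b had 25.9 and Cdkn2b 25.5.

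Cdkn2d, an INK4 inhibitor of Cdk4 and Cdk6, had the lowest log2 fold change of the role. It stood at 16.3, 10.3, 8.92, 10.95 and 9.06 CPM in the DSS mice and 12.1, 9.37, 5.81, 5.67 and 6.65 CPM in the ceAF mice. Mice 3, 4 and 5 of ceAF lay below every DSS mouse and ceAF mouse 1 above the DSS median, with a log2 fold change of -0.49 (95% interval -1.05 to 0.071, unadjusted edgeR p = 0.0808, exact permutation p 0.103), or -0.31 without DSS mouse 1. Cdkn2b stood at 29.8, 45.7, 34.7, 48.9 and 31.9 CPM in the DSS mice and 59.7, 27.99, 27.0, 30.3 and 22.9 CPM in the ceAF mice. Here ceAF mouse 1 was the highest of the 10 and the other ceAF mice lay between 22.9 and 30.3 CPM, so the log2 fold change of -0.19 became -0.50 without that mouse and -0.078 without ceAF mouse 5. Without ceAF mouse 1, Cdkn2b and Cdkn2d both had an unadjusted edgeR p under 0.05, and the median of the role was -0.19 against -0.084.

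Cdkn1c, which encodes p57, stood at 27.8, 14.5, 12.3, 14.8 and 3.72 CPM in the DSS mice and 25.5, 7.61, 8.66, 23.4 and 7.81 CPM in the ceAF mice. It ranged widely in each group, and its 95% interval of -1.12 to 1.11 was the widest among the inhibitors. Cdkn1b, which encodes p27, had 114 ± 12.9 CPM in DSS and 123 ± 21.7 CPM in ceAF (0.11, and below 0 with voom), and Cdkn2c 9.15 ± 2.27 CPM in DSS and 8.51 ± 1.81 CPM in ceAF (-0.10). Cdkn1b was 0.020 without ceAF mouse 1, and Cdkn2c 0.010 without DSS mouse 2. By score, ceAF mouse 1 was the highest of the 10 mice for the inhibitors (0.39), where it was low for licensing, and DSS mouse 5 the lowest (-0.38).

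The DNA damage checkpoint role held the kinases Atm, Atr, Prkdc, Chek1, Chek2 and Abl1, Trp53 with Mdm2, the coactivators Ep300 and Crebbp, Gadd45a, Gadd45b and Gadd45g, and the 14-3-3 genes Sfn, Ywhab, Ywhae, Ywhag, Ywhah, Ywhaq and Ywhaz. All 20 were tested, with 11 above 0. Gadd45b (ENSMUSG00000015312), a stress-induced gene, stood at 39.6, 13.04, 14.1, 16.8 and 22.7 CPM in the DSS mice and 7.78, 11.1, 10.1, 9.49 and 12.1 CPM in the ceAF mice. The groups did not overlap, and DSS mouse 1 stood far above the rest. The mean was 21.3 ± 10.9 CPM in DSS and 10.1 ± 1.63 CPM in ceAF, a log2 fold change of -1.07 (SE 0.293, 95% interval -1.71 to -0.43, unadjusted edgeR p = 0.00378, exact permutation p 0.00794), the lowest among the cell cycle genes tested. Without DSS mouse 1 it was -0.72.

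Neutrophil genes, too, stood lower in ceAF. All 5 (S100a8, S100a9, Cxcr2, Csf3r and Retnlg) had an unadjusted edgeR p under 0.05 and were lower in ceAF, with a median log2 fold change of -3.98. At that limit 3.67% of all genes tested were lower, and none of the 5 had a Benjamini-Hochberg adjusted p under 0.05. Exact permutation p-values were 0.111 for S100a8, 0.0397 for S100a9, 0.159 for Cxcr2, 0.151 for Csf3r and 0.0714 for Retnlg, so only S100a9 was under 0.05 by that test. Leaving out each mouse, tried on the marker lists after seeing the data, put the median at -1.97 without DSS mouse 1, where only S100a9 kept an unadjusted edgeR p under 0.05, and at -4.49 to -3.71 in the other fits. For Cxcr2 and Csf3r 2 ceAF mice lay above the DSS median. The summed level of the 5 was 1519, 13.6, 168, 16.7 and 67.3 CPM in the DSS mice and 1.68, 12.1, 12.2, 37.8 and 18.6 CPM in the ceAF mice. DSS mouse 1 was again the highest by far and S100a9 was the most abundant of the list, with a mean FPKM of 165. No neutrophil gene was at 0 in any mouse, and their part in the Gadd45b difference was not tested.

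Atr (ENSMUSG00000032409), the kinase that answers stalled replication, stood at 12.8, 13.5, 10.96, 10.4 and 14.5 CPM in the DSS mice and 14.8, 14.0, 14.1, 19.9 and 22.9 CPM in the ceAF mice. All 5 ceAF mice lay above the DSS median, and mice 1, 4 and 5 above every DSS mouse. The mean was 12.4 ± 1.74 CPM in DSS and 17.1 ± 4.03 CPM in ceAF, with a log2 fold change of 0.46 (95% interval 0.081 to 0.84, unadjusted edgeR p = 0.0219, exact permutation p 0.0238), at the lowest mean FPKM of the tested members with a role, 0.629. Neither limma-trend fit gave it an unadjusted p under 0.05, nor did the fits without DSS mouse 4, ceAF mouse 4 or ceAF mouse 5. Chek1, its target, had 5.56 ± 2.04 CPM in DSS and 6.98 ± 2.64 CPM in ceAF (0.33), Chek2 8.83 ± 1.97 CPM in DSS and 10.9 ± 2.47 CPM in ceAF (0.30) and Atm 0.17. Trp53 had 29.97 ± 4.76 CPM in DSS and 34.97 ± 4.85 CPM in ceAF (0.22) and Mdm2, which degrades p53, 69.0 ± 5.85 CPM in DSS and 68.2 ± 2.01 CPM in ceAF (-0.016). Gadd45a had a log2 fold change of 0.059 and Gadd45g -0.43, with all 5 ceAF mice of Gadd45g below the DSS median.

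The 14-3-3 genes include Ywhaz, the most abundant of all cell cycle genes tested, with a mean FPKM of 191. Ywhaz stood at 852, 831, 773, 911 and 646 CPM in the DSS mice and 856, 779, 792, 747 and 702 CPM in the ceAF mice. The groups overlapped, with a log2 fold change of -0.049. Sfn, the 14-3-3 gene of epithelial cells, had 197 ± 38.7 CPM in DSS and 167 ± 18.0 CPM in ceAF (-0.24), Ywhah -0.13, Ywhae -0.083, Ywhag -0.078, Ywhab -0.042 and Ywhaq 0.023. The coactivators had 0.17 for Ep300 and 0.071 for Crebbp, and the kinases Abl1 and Prkdc 0.092 and 0.11.

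The last role held the ubiquitin ligase subunits Skp1, Skp2, Cul1 and Rbx1, the kinase Gsk3b and the TGF-β branch with Tgfb1, Tgfb2, Tgfb3, Smad2, Smad3 and Smad4. All 11 were tested, with 4 above 0. Tgfb2 (ENSMUSG00000039239) stood at 7.30, 4.85, 5.39, 3.39 and 12.9 CPM in the DSS mice and 4.65, 3.84, 3.02, 4.06 and 4.29 CPM in the ceAF mice. Most of the spread came from DSS mouse 5, and no ceAF mouse lay above the DSS median. The mean was 6.77 ± 3.71 CPM in DSS and 3.97 ± 0.613 CPM in ceAF, a log2 fold change of -0.77 (unadjusted edgeR p = 0.0381, exact permutation p 0.0952), which was -0.38 without DSS mouse 5. Its unadjusted p stayed under 0.05 without DSS mouse 2, 3 or 4 or ceAF mouse 1, and not without any of the other 6 mice, nor with voom, both limma-trend fits or the replicate block. Tgfb1 stood at 30.2, 12.8, 12.5, 15.6 and 13.6 CPM in the DSS mice and 4.20, 14.3, 12.5, 14.4 and 14.0 CPM in the ceAF mice. DSS mouse 1 was the highest, ceAF mouse 1 the lowest, and the other 8 mice lay close together, so the log2 fold change of -0.51 was -0.19 without DSS mouse 1. Tgfb3 had -0.32, Smad2 0.018, Smad3 -0.075 and Smad4 -0.091. Skp2, which marks p27 for destruction, had 5.90 ± 1.82 CPM in DSS and 7.33 ± 2.08 CPM in ceAF (0.32). Skp1 was the most abundant of the role, with a mean FPKM of 95.3 and 216 ± 16.6 CPM in DSS and 206 ± 11.1 CPM in ceAF, Cul1 had 0.066, Rbx1 -0.12 and Gsk3b 0.096.

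Of the 122 genes with a role, 5 had too few counts to be tested. Smc1b, a meiotic cohesin, had 0 to 6 counts per mouse, the meiotic cyclin Ccna1 0 to 14, the oocyte kinase Wee2 0 to 5, Cdkn2a, which encodes p16 and p19ARF, 0 to 10, and Ccnb3 0 in 9 mice and 4 in DSS mouse 2. Of the 131 members without a role, 122 carry a pseudogene or predicted-gene name, 77 had no count in any mouse and 116 were not tested. The genes with a role held 92.8% of the counts on all members. The 15 tested without a role were Paqr4, Nif3l1, Mllt10, Spef1, Ssc4d, Aktip, Cdk5rap2, Suco, Copz1, Hdac1-ps, Ywhaq-ps3, Gm14287, Ccnb2-ps, Plk-ps1 and Gm4202. Several share the orthology number of an overlapping or touching cell cycle gene, as Paqr4 does with Pkmyt1, Nif3l1 with Orc2, Spef1 with Cdc25b and Aktip with Rbl2, and the listing then says nothing of a cell cycle function.

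Among these 15, Copz1, a coat protein gene, had 182 ± 16.9 CPM in DSS and 147 ± 15.1 CPM in ceAF (log2 fold change -0.31, unadjusted edgeR p = 0.0119, exact permutation p 0.0159), and Mllt10, a chromatin gene, had 56.2 ± 2.65 CPM in DSS and 64.2 ± 5.10 CPM in ceAF (0.19, unadjusted edgeR p = 0.0414, exact permutation p 0.0238). For Mllt10 the unadjusted p was under 0.05 in only 3 of the 10 leave-outs, those of DSS mouse 5, ceAF mouse 2 and ceAF mouse 5. Paqr4 was the most abundant, with a mean FPKM of 56.0, and had a log2 fold change of -0.11, between -0.25 without ceAF mouse 1 and 0.0078 without ceAF mouse 5. The pseudogenes Ywhaq-ps3 (0.72) and Plk-ps1 (0.64) had the highest log2 fold changes of the 132, at a mean of 1.10 and 0.747 CPM in DSS. Ywhaq-ps3 shares 738 bases of its span with Cdk5rap2 on the same strand (244 against 2280 counts over all mice). Reads of Cdk5rap2 may thus be counted for it, which was not tested. Reads that fit a gene and its near-identical copy can be counted for either, so the values of Plk1, Ccnb2, Hdac1 and Ywhaq beside those of Plk-ps1, Ccnb2-ps, Hdac1-ps and Ywhaq-ps3 are uncertain to that extent.

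Ccnb1 and Cdk1 varied together over the mice. Over the 10 mice, the 6 pairs of Mcm2, Ccnb1, Cdk1 and Cdkn1a were compared on log2 CPM. For Ccnb1 with Cdk1, Pearson's r was 0.96 and Spearman's rho 0.92, with permutation p-values adjusted over the 6 pairs of 3.0e-04 and 0.00318. With the group means taken out r was 0.95, and without ceAF mice 1 and 5, the farthest from the median of Ccnb1, it was 0.90. Mcm2 with Ccnb1 had r 0.59 and rho 0.44 (adjusted permutation p 0.212 and 0.306), and r 0.15 without DSS mouse 3 and ceAF mouse 1, so it rested on those mice. Mcm2 with Cdk1 had r 0.54 and rho 0.50, with r 0.13 without the same mice (adjusted permutation p 0.215 and 0.306). Cdkn1a had r 0.13 with Mcm2, 0.14 with Ccnb1 and 0.35 with Cdk1, and rho 0.042, 0.18 and 0.45, none with an adjusted permutation p under 0.05 (smallest 0.306). With the group means taken out r was 0.15, 0.23 and 0.45, and rho 0.12, 0.27 and 0.66. With Mcm2, r turned to -0.33 without DSS mouse 3 and ceAF mouse 1. Without ceAF mice 1 and 5, r was -0.036 with Ccnb1 and 0.35 with Cdk1.

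**Figure D4:**
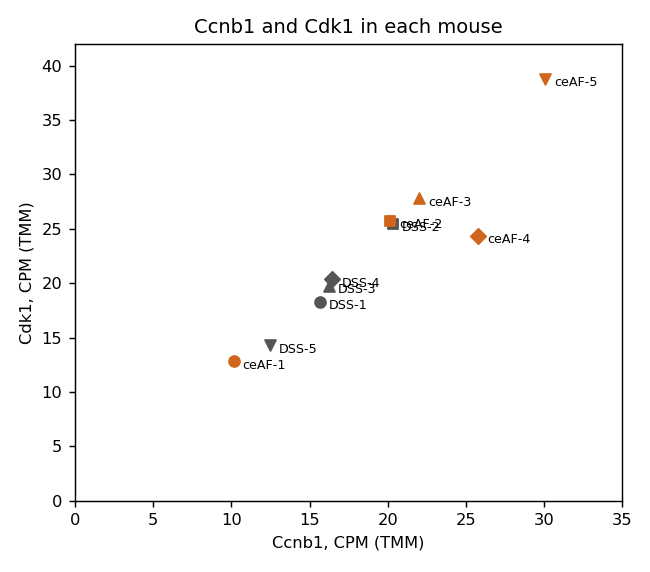
CPM of Ccnb1 against CPM of Cdk1 in each of 5 DSS mice (grey) and 5 ceAF mice (orange). The mice lie along a line from ceAF mouse 1 (10.1 and 12.8 CPM) to ceAF mouse 5 (30.1 and 38.8 CPM).

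Genes of dividing cells outside the pathway list also had ceAF mouse 1 at the low end. Mki67 stood at 85.0, 119.7, 103, 99.1 and 97.1 CPM in the DSS mice and 66.4, 125, 129, 138 and 225 CPM in the ceAF mice. The mean was 101 ± 12.6 CPM in DSS and 137 ± 56.8 CPM in ceAF, a log2 fold change of 0.44 (unadjusted edgeR p = 0.110, exact permutation p 0.302), which was 0.19 without ceAF mouse 5 and 0.62 without ceAF mouse 1. Top2a stood at 54.3, 88.8, 72.4, 64.0 and 81.9 CPM in the DSS mice and 37.5, 80.1, 106, 97.5 and 104 CPM in the ceAF mice, with a log2 fold change of 0.23 (0.15 without ceAF mouse 3 and 0.42 without ceAF mouse 1). For both, ceAF mouse 1 was the lowest of the 10 mice. Tk1 had 0.25, Rrm2 0.057 and Birc5 0.031, and the licensing factor Cdt1 and the mitotic kinase Aurkb, which the deposited annotation does not place on the map, had 0.23 and 0.47. Without ceAF mouse 5 Tk1 was 0.14, Cdt1 0.14 and Aurkb 0.30, while Rrm2 (-0.062) and Birc5 (-0.13) lay below 0. Of 16 proliferation genes, 15 lay above 0, none had an unadjusted edgeR p under 0.05, and the median log2 fold change was 0.24, or 0.11 without ceAF mouse 5 and 0.41 without ceAF mouse 1. Without ceAF mouse 1, 9 of the 16 were higher at an unadjusted edgeR p under 0.05, as were 5.21% of all genes tested. Without ceAF mouse 5, 11 of these 16 genes lay above 0. Their score was -0.30, 0.14, -0.047, -0.068 and -0.20 in the DSS mice and -0.66, 0.092, 0.24, 0.14 and 0.66 in the ceAF mice, and Hmgb2 was the most abundant.

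Markers of the cells that could divide in this tissue were set beside these values. The 8 epithelial genes, of which Car1 was the most abundant, had a median log2 fold change of 0.032, with 4 above 0, and none was at 0 in any mouse. Leaving out 1 mouse moved this median between -0.046 (without DSS mouse 5) and 0.15 (without ceAF mouse 4). Their summed level was 18378, 22843, 25019.8, 25679 and 14142 CPM in the DSS mice and 26957, 19187, 22122, 20475 and 15846 CPM in the ceAF mice. Car1, a gene of mature colonocytes, stood at 1118, 4653, 7774, 4956 and 115 CPM in the DSS mice and 11922, 814, 3344, 753 and 505 CPM in the ceAF mice, highest in ceAF mouse 1 and lowest in DSS mouse 5, so the mice differed widely in this gene while the median of the list lay near 0. Of the 5 crypt base genes 4 were tested and 3 lay above 0, with a median of 0.43. Axin2 had 0.64 (unadjusted edgeR p = 0.0478, exact permutation p 0.0714), Ascl2 0.49 (unadjusted edgeR p = 0.182) and Lgr5 0.36 (unadjusted edgeR p = 0.426). Smoc2, the most abundant of the list with a mean FPKM of 2.88, lay below 0, at -0.16. Olfm4 was not tested and was at 0 in at least 1 mouse. The crypt base median ran from 0.24 without DSS mouse 1 to 0.64 without DSS mouse 2, and Axin2 kept its unadjusted p under 0.05 only without DSS mouse 2 and without ceAF mouse 4. The summed level of the 4 tested crypt base genes was 29.3, 45.7, 41.8, 35.99 and 33.0 CPM in the DSS mice and 32.4, 46.2, 51.7, 35.1 and 48.7 CPM in the ceAF mice. Smoc2 alone gave 21.8, 21.1, 25.6, 18.8 and 17.8 CPM of this in the DSS mice and 10.5, 22.7, 20.8, 17.6 and 22.2 CPM in the ceAF mice. The 6 B cell genes all lay below 0 (median -0.62, none with an unadjusted edgeR p under 0.05), and their summed level was 192, 34.1, 26.6, 29.9 and 34.1 CPM in the DSS mice and 7.40, 35.5, 65.3, 10.7 and 98.1 CPM in the ceAF mice. Without DSS mouse 1 all 6 lay above 0, with a median of 0.52. Within ceAF, mouse 5 was the highest and mouse 1 the lowest for B cells, as for the mitotic genes, while in DSS mouse 1 had the most B cell RNA and a low mitotic score. The 5 germinal centre B cell genes summed to 14.9, 8.94, 7.004, 9.99 and 6.54 CPM in the DSS mice and 7.02, 10.5, 9.05, 8.95 and 19.2 CPM in the ceAF mice, again highest in ceAF mouse 5. The part of colonocytes, B cells, germinal centres and crypt base cells in the differences between mice in cell cycle genes was not tested.

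The remaining lists gave a median log2 fold change of -0.51 for 5 macrophage genes, -0.33 for 4 plasma cell genes, -0.21 for 5 fibroblast genes and -0.26 for 5 smooth muscle genes. Of the macrophage genes, Adgre1 (exact permutation p 0.0476) and C1qa (exact permutation p 0.0794) were lower at an unadjusted edgeR p under 0.05, as were 3.67% of all genes tested. Neither kept it without DSS mouse 1, 2 or 3 or without ceAF mouse 1, 4 or 5. C1qa also lost it without DSS mouse 4 and without ceAF mouse 2. The fibroblast median turned to 0.21 without DSS mouse 1 and to 0.010 without ceAF mouse 1. Without ceAF mouse 1 the macrophage median was -0.30 and that of plasma cells -0.16, and the latter was -0.17 without DSS mouse 1. The smooth muscle median ran from -0.46 without ceAF mouse 2 to -0.042 without DSS mouse 5. DSS mouse 1 had the most fibroblast RNA, a summed 1024 CPM against 458 to 494 CPM in the other DSS mice. The fibroblast genes were lowest in ceAF mouse 1, at a summed 156 CPM against 431 to 1024 CPM in the other mice. The plasma cell genes also had their lowest sum there, 537 CPM. Of these, Jchain (79.2 CPM), Xbp1 (169 CPM) and Mzb1 (0 CPM) were lowest in that mouse. Sdc1 went the other way, at 289 CPM the highest of the ceAF mice. Macrophage genes summed to 32.5 CPM in ceAF mouse 1 and 68.0 to 146 CPM in the others. Their part in the low licensing and mitotic scores of that mouse was not tested.

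Promoter letters, which the annotation did not use, were counted in each role. Known regulators of cell cycle genes bind the E2F site, the CCAAT box and the cell cycle homology region (CHR). RefSeq promoters (GRCm38.p6, 250 bases before to 50 after the start) were found for 98 of the 122 genes with a role, 123 promoters in all, and 105 of these read into a transcript of the gene. On both strands they were searched for TTTGAA or TTCGAA as the CHR, for CCAAT, and for TTTCCCGC, TTTGGCGC, TTTGGCGG, TTTCGCGC, TTTGCCGC or TTTCCCGG as the E2F site. No motif here contains another. Of all 32851 promoters in the table, 19.2% held the CHR letters, 37.4% CCAAT, 7.52% both of these and 3.98% an E2F form. Of the 123 promoters of genes with a role, 25.2% held the CHR letters, 52.0% CCAAT and 18.7% an E2F form, so most lack the CHR letters and most lack an E2F form.

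Of 13 promoters of the S phase and mitotic role, 46.2% held the CHR letters, 69.2% CCAAT and 7.69% an E2F form. These 13 include promoters of the untested genes Ccna1, Wee2 and Ccnb3, and none was found for Ccna2, Cdc25c, Wee1 or Pkmyt1. Untested Smc1b and Cdkn2a likewise count among the promoters of their roles. Of 8 spindle checkpoint promoters, 62.5% held the CHR letters, 75.0% CCAAT and none an E2F form. Of 21 licensing promoters, 28.6% held the CHR letters, 61.9% CCAAT and 38.1% an E2F form. Of 12 Rb and E2F promoters 5 held an E2F form, 3 the CHR letters and 3 CCAAT. The 10 G1 promoters held the CHR letters in none, CCAAT in 3 and an E2F form in 2, and the 9 inhibitor promoters held them in 11.1%, 44.4% and 11.1%. Of 21 promoters of the anaphase-promoting complex role, 4 held the CHR letters, 12 CCAAT and 2 an E2F form. The 18 DNA damage checkpoint promoters held them in 2, 10 and 2, and the 11 of ubiquitin ligase and upstream signal genes in 4, 4 and 2. These shares rest on few promoters, some of them from the same gene (Bub3 gives 2 of the 5 spindle checkpoint promoters with the CHR letters, and Cdc14a 2 of the 6 mitotic ones), and differences between roles were not tested. Promoters of 1 gene overlap in part, and a match describes letters, not binding.

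Stretches before the start are shown for the genes followed above, because Ccnb1 and Cdk1 varied together, Plk1 was the mitotic gene with the smallest p in the edgeR fit of all mice, and Mcm2 and Cdkn1a stand for licensing and inhibition. The coordinates are those of GRCm38.p6, and matches to the letters above are in capitals. Ccnb1 is shown from chr13:100786541-100786636 on the minus strand, which is 150 to 55 bases before the RefSeq start, and the other stretches are the 150 bases before that start, from chr10:69352913-69353062 on the minus strand for Cdk1, chr7:122159285-122159434 on the plus strand for Plk1, chr6:88898781-88898930 on the minus strand for Mcm2 and, for the 2 starts of Cdkn1a, chr17:29090829-29090978 on the plus strand and chr17:29093619-29093768 on the plus strand. Upstream of the RefSeq start, 30 of the Ccnb1 bases shown, 26 of the Cdk1 bases and 3 of the bases at the upstream Cdkn1a start lie in exons of the same genes in the GENCODE annotation, and the Ccnb1 stretch stops at 55 because more of the bases after it lie in such exons.
Ccnb1: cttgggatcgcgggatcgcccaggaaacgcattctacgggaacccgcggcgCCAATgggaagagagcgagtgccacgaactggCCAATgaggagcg
Cdk1: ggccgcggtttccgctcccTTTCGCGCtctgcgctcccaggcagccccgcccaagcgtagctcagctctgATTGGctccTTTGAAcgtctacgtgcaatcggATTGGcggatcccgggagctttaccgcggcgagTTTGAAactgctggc
Plk1: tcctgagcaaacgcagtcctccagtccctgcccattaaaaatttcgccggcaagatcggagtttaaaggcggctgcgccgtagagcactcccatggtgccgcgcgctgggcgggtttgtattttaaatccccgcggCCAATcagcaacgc
Mcm2: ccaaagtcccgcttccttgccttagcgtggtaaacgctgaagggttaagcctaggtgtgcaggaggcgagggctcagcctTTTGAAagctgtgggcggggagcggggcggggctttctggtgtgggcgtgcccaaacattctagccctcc
Cdkn1a, upstream start: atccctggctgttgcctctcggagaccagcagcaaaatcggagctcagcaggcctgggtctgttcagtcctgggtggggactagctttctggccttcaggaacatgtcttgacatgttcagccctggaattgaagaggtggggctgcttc
Cdkn1a, downstream start: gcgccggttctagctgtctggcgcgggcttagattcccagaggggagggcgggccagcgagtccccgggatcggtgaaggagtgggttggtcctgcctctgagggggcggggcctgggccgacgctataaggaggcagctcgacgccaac
Ccnb1 shows CCAAT in 2 places on its own strand and no CHR letters in the bases shown, and Cdk1 shows CCAAT on the opposite strand in 2 places, TTTGAA in 2 places and an E2F form. Plk1 shows CCAAT close to the start, Mcm2 shows TTTGAA and no E2F form, and neither stretch of Cdkn1a holds any of the letters. Outside the bases shown, the whole promoters counted above also hold the CHR letters for Plk1, CCAAT for Mcm2 and a further CCAAT for Cdk1.

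The strand setting of the counting is not given in the sources used here, so reads of overlapping genes may be shared. Of the 68 cell cycle and proliferation genes followed most closely, 20 overlap another tested gene. Ccnd3 overlaps Bysl on the other strand (log2 fold change 0.039), Plk1 overlaps Gm44985 (0.022), and Atr overlaps Gm16794 (0.29). Mcm7 overlaps Ap4m1, which had 0.34, a larger log2 fold change than Mcm7 itself. Ywhaq-ps3 overlaps Cdk5rap2 (0.13) on the same strand, where reads could be shared under any strand setting. Gadd45b, Cdk7, Dbf4, Mcm2, Ccnb1 and Cdk1 overlap no gene of the table. As deposited, with no build named, Ccnb1 lies at chr13:100915158-100923078 and Cdk7 at chr13:100839139-100867447 on the same chromosome, Ccnd3 at chr17:47815976-47910616, Plk1 at chr7:121758662-121769096, Cdk1 at chr10:69170976-69188768, Mcm2 at chr6:88860456-88875762 and Cdkn1a at chr17:29309950-29319701.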

How the data were processed

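The deposited table gives a read count per gene and mouse that the authors made from reads of colon RNA, trimmed with cutadapt 1.9.1 and aligned with HISAT2 2.2.1 per the submitters' processing notes. The counting program, its strand setting and the genome build are not given in the sources used here. The deposited FPKM columns are these counts scaled by the deposited exonic length and the library total, and 100% of genes match within 1%. Groups were taken from the sample labels.

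Counts of the 10 mice were filtered with filterByExpr (minimum count 10), scaled by TMM and tested in R 4.3.3 with edgeR 4.0.16 (quasi-likelihood, 2-sided, Benjamini-Hochberg over 16545 genes, called at an adjusted p under 0.05). The pathway members were read from that fit, and exact permutation tests used all 252 assignments of 5 of 10 mice. Correlations used 100000 permutations. Python 3.11.15, scipy 1.17.1 and matplotlib 3.10.9 gave the summaries and figures, and the scripts were tested on simulated data. Alternatives were upper quartile and total count scaling, DESeq2 1.42.0, voom with sample quality weights and limma-trend on log2(FPKM + 1) and log2(FPKM + 0.1) (limma 3.58.1), no filter, a filter of 1 CPM in 5 mice, the replicate number as a block, and leaving out each mouse.

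The members, roles and marker lists were chosen with earlier results of these data known. Genes named by rule were Mcm2, Ccnb1, Cdk1 and Cdkn1a, chosen genes of each role, every member with an unadjusted p under 0.05, the 3 members with the largest log2 fold change in each direction and the most abundant member of each role. Mki67, Top2a, Rrm2, Tk1 and Birc5, from outside the pathway list, were added and are counted with the genes named by rule below. The other members named were given after their values were seen, to account for all members with a role. Depth was 14676471 to 19901549 counts per mouse, and the standard error of a member's log2 fold change had a median of 0.16 (0.081 to 0.51), so smaller differences than that were not resolved. Within a group, pairs of libraries differed by 14.6 to 148 in chi-square per gene, over 20 pairs, far above the 1 of repeated sequencing of the same RNA.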

Additional observations from a re-analysis of the deposited data

Results flagged for a closer look

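Each gene named by rule, each score and each library measure was searched, within each group of 5 mice, for a mouse whose gap to its nearest neighbour, divided by the range of the group, passed 0.71 (Dixon's criterion). For genes the ratio was taken on log2 CPM, while the levels printed beside it are CPM, so it does not follow from them directly. Of 186 comparisons 18 passed, and chance alone passes about 1 in 20 (9.3). Of the 18, 11 are ceAF mouse 1, 3 DSS mouse 1, 2 DSS mouse 5, and DSS mice 2 and 4 have 1 each.

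In ceAF mouse 1 the licensing genes stood low, as Mcm2 at 9.004 CPM with the other ceAF mice at 21.2 to 24.0 (ratio 0.871 on log2 CPM), Mcm4 at 13.2 with 26.9 to 30.4 (0.853), Mcm5 at 8.62 with 20.6 to 28.4 (0.731) and Dbf4 at 17.6 with 25.97 to 30.3 (0.716). So did, again with ratios on log2 CPM, Rrm2 at 10.9 with 22.6 to 30.2 (0.713), Top2a at 37.5 with 80.1 to 106.0 (0.73) and Tgfb1 at 4.20 with 12.5 to 14.4 (0.886). In the same mouse the share of counts on cell cycle genes was 0.650% with the next at 0.767% (0.732), and the inhibitor score was high, at 0.39 with the next at -0.12 (0.841). Its score for ubiquitin ligase and upstream signal genes was low, at -0.34 with the next at -0.042 (0.75), and its plasma cell score was -1.89 with the next at -0.042 (0.842).

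Among the DSS mice, Tgfb1 was high in mouse 1 at 30.2 CPM with the others at 12.5 to 15.6 (0.753 on log2 CPM), and so were its scores of B cells, 2.51 with the next at 0.057 (0.827), and fibroblasts, 0.99 with the next at 0.032 (0.85). DSS mouse 5 was low for Cdc25b, at 11.7 CPM with the others at 17.8 to 19.2 (0.85 on log2 CPM), and for the T cell score, at -0.66 with the next at 0.85 (0.887). DSS mouse 2 had the largest library of its group, 19901549 counts (0.908), and DSS mouse 4 the largest share on mitochondrial genes, 6.54% with the next at 5.45% (0.736).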

How the results depend on the processing

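Over 19 alternatives, the log2 fold change of 50 of 67 genes named by rule and tested kept its sign throughout, and none of the 67 came to an adjusted p under 0.05 (Benjamini-Hochberg) in any of them. DESeq2 called 30 of all genes tested, and no cell cycle gene. The members higher in ceAF at an unadjusted p under 0.05 were 2 with total count scaling (1.52%, with 1.98% of all genes). They were 2 with limma-trend on log2(FPKM + 1) (1.52%, with 1.86% of all genes) and 2 on log2(FPKM + 0.1) (1.52%, with 1.76% of all genes). Voom and sample quality weights gave 23 (17.4%, with 7.29% of all genes) and put the median of the inhibitors at -0.38. The cause was not tested. The signs that turned belong to small differences. With voom, Birc5 was -0.075, Bub3 0.026, Cdkn1b -0.083 and Rad21 -0.054. On log2(FPKM + 1), Birc5 was -0.0073, Ccnd2 -0.016, E2f1 -0.0094, Mcm3 -0.016, Rad21 -0.0056 and Rrm2 -0.023. On log2(FPKM + 0.1), Birc5 was -0.012, Ccnd2 -0.026, Ccne1 -0.0040, Cdkn1c 0.0045, E2f1 -0.063, Mcm3 -0.038, Rad21 -0.0058 and Rrm2 -0.039. Bub3 was 0.0047 with upper quartile scaling, 0.00012 without a filter and 0.0060 with the CPM filter, Cdkn1c 0.0087 and 0.010 with those filters, and Rad21 -0.0030 with total count scaling. Leaving out each mouse in turn gave 0 to 3 calls among all genes, 2 to 26 members higher (while 2.33% to 5.21% of all genes tested were) and 3 to 6 lower (1.92% to 5.94%). The log2 fold change then ran from -0.13 to 0.12 for Birc5, -0.043 to 0.033 for Bub3, -0.11 to 0.35 for Ccnd2, -0.055 to 0.17 for Ccne1, -0.029 to 0.25 for Cdc25b, -0.12 to 0.032 for Cdkn1a, -0.30 to 0.37 for Cdkn1c, -0.22 to 0.010 for Cdkn2c and -0.10 to 0.23 for E2f1. It ran from -0.030 to 0.080 for Fzr1, -0.13 to 0.079 for Hdac1, -0.035 to 0.27 for Mcm3, -0.25 to 0.0078 for Paqr4, -0.013 to 0.070 for Rad21, -0.062 to 0.23 for Rrm2 and -0.10 to 0.00027 for Ywhaz. The median of all members ran from 0.083 to 0.14, of licensing from 0.082 to 0.30, of the mitotic role from 0.26 to 0.47, of the spindle checkpoint from 0.26 to 0.59, of the inhibitors from -0.20 to -0.0085, and of ubiquitin ligase and upstream signal genes from -0.11 to 0.020. With the replicate number as a block, Cdkn1c was 0.023, E2f1 -0.039 and Rrm2 -0.0089, 7 members were higher at an unadjusted p under 0.05 (5.30%, with 2.13% of all genes) and 4 lower (3.03%, with 2.06%), with Bub1b, Ttk, Ywhaq-ps3 and Cdkn2d gained and Mllt10 and Tgfb2 lost. No gene had an adjusted p under 0.05 (Benjamini-Hochberg) with the block. Mice of the same number correlated at -0.249 to 0.286 after the group means were taken out, 1 of 5 pairs over 0.1, so the replicate number was not used as a pairing. With 5 mice a group, the smallest exact permutation p is 0.00794.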
